A study of Mus musculus with 13 samples.

Results

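The cadherins and protocadherins form a gene family of cell adhesion receptors, and their reads were followed through mouse glioblastomas and normal brain. Members were the protein-coding genes of the GENCODE M21 annotation whose symbol begins with Cdh and a digit or with Pcdh, without Cdh5 and Pcdh15. They numbered 90 of the 55416 genes in the deposited table: 5 type I cadherins, 12 type II cadherins, 5 other cadherins, 11 non-clustered protocadherins, 14 genes of the Pcdha cluster, 22 of the Pcdhb cluster and 21 of the Pcdhg cluster. The samples were 5 PDGFB tumors, 5 RAS tumors and 3 pieces of normal brain, read by sequencing of polyadenylated RNA. PDGFB tumors (genotype label PDGFB-shP53) were induced by a lentivirus carrying PDGFB, a platelet-derived growth factor, and a short hairpin RNA against p53. RAS tumors (HrasV12-shp53) were induced by one carrying the oncogenic HRasV12 and the same kind of hairpin. Both viruses were injected into the motor cortex of CNP-Cre mice, in which the promoter of Cnp, a gene of oligodendrocytes, drives Cre recombinase, so both tumor groups share the Cre allele and the p53 hairpin. GFP+ tissue was taken from 5 mice per tumor group at the endpoint of disease. Normal brain tissue was labelled WT. A protocol describes normal tissue dissected off the tumors, without saying that these 3 samples are it. The title of normal brain sample 3 begins MBT, where those of samples 1 and 2 begin NBT, and its tissue label is the same as theirs. The labels give neither a brain region nor a count of animals, so a difference from the tumors cannot be told apart from one of region, and p-values measure the spread between these samples. No ages are given.

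Classical cadherins bind the same or related cadherins on a neighbouring cell in the presence of calcium, and their cytoplasmic tails hold catenins, which link them to actin. Type I and type II cadherins differ in how their outermost domains pair, and neurons and glia of different brain regions carry different sets of them. Non-clustered protocadherins adhere weakly and signal through other partners. The clustered protocadherins come from 3 neighbouring arrays of variable exons, each with its own promoter. In the Pcdha and Pcdhg arrays the variable exons are spliced to shared constant exons, while each Pcdhb gene is a single exon. Neurons choose a few of these promoters each and so acquire a surface identity.

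Libraries held 13952738 to 15607754 reads, of which 529162 to 643055 were counted for genes, between 4.24% and 4.75% of uniquely mapped reads. The strand setting of the count is not given in the sources used here, and whether the counted reads come from a gene's own strand was not tested, so every value below is of reads deposited under a gene's name. Members together had 375 to 510 reads in PDGFB tumors, 178 to 285 in RAS tumors and 274 to 332 in normal brain, so most single members were near the limit of detection. The hairpin's target Trp53 had 1 to 2 reads in PDGFB tumors, 0 to 5 in RAS tumors and 0 to 4 in normal brain, too few to check the labels. RAS tumor 2 stood apart from its group. On the first principal component of all genes tested, which held 56.4% of the variance, RAS tumor 2 lay at -11.2, against -71.4 to -53.3 for the other RAS tumors. Among markers, all 12 neuron genes summed to 364 to 772 CPM (reads scaled to the library total counted for genes) in PDGFB tumors, 4062 to 8560 in RAS tumors and 5802 to 6126 in normal brain, with Nefm, which has an exon of Nefl opposite, the most abundant. The 8 of them with no exon on the opposite strand summed to 84.7 to 279 CPM in PDGFB tumors, 36.6 to 341 CPM in RAS tumors and 1339 to 1473 CPM in normal brain. The 8 oligodendrocyte precursor markers summed to 872 to 1180 CPM in PDGFB tumors, 106 to 426 in RAS tumors and 136 to 159 in normal brain. The 6 fibroblast and meninges markers summed to 6.57 to 46.3 CPM in PDGFB tumors, 91.7 to 395 in RAS tumors and 9.45 to 11.9 in normal brain. In bulk tissue, fewer cells of a type and less RNA per cell cannot be told apart.

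A low-count filter left 12 members to be tested among 7722 genes: Cdh2, Cdh4, Cdh6, Cdh13, Pcdh1, Pcdh7, Pcdh10, Pcdh17, Pcdhga11, Pcdhga12, Pcdhgb7 and Pcdhgc3. A gene was called at an adjusted p under 0.05 in edgeR's quasi-likelihood test, which adjusts over all genes tested. By calls among these 12 members, the tumors differed most from each other. In PDGFB tumors against RAS tumors, 6 of the 12 members rose (Cdh4, Pcdh10, Pcdh17, Pcdhga12, Pcdhgb7, Pcdhgc3), where 14.6% of all genes tested did, and 2 fell (Cdh13, Cdh6), where 17.4% of all genes did. In PDGFB tumors against normal brain, 3 rose (Pcdhgc3, Pcdhgb7, Pcdh10) against 20.2% of all genes, and 2 fell (Pcdh7, Pcdh1) against 25.1%. In RAS tumors against normal brain, 2 rose (Pcdhgc3, Cdh2) against 26.9% of all genes, and 3 fell (Pcdhga12, Pcdh17, Pcdh7) against 29.3%. In either direction, 8 of 12 members were called between the tumors, against 32.1% of all genes, while 5 of 12 were called in PDGFB tumors against normal brain, below the 45.3% of all genes, and 5 of 12 in RAS tumors against normal brain, below the 56.2%. The members' median log2 fold change was 1.09 in PDGFB tumors against RAS tumors, 0.46 in PDGFB tumors against normal brain and -0.26 in RAS tumors against normal brain, where the median over all genes tested was 0.03, -0.00 and 0.02. Having passed the filter, these 12 are the abundant members and do not stand for the 90. A gene can also pass the filter through a single group where it is high. Cdh4 reached 10 reads in no RAS or normal sample, Pcdh17 in no RAS tumor, and Cdh13 and Cdh6 in no PDGFB tumor. All of these are among the members called between the tumors. The counts of members called are therefore not independent of the filter, which all genes went through. The 3 comparisons share libraries, so they are not independent of each other.

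**Figure D1:**
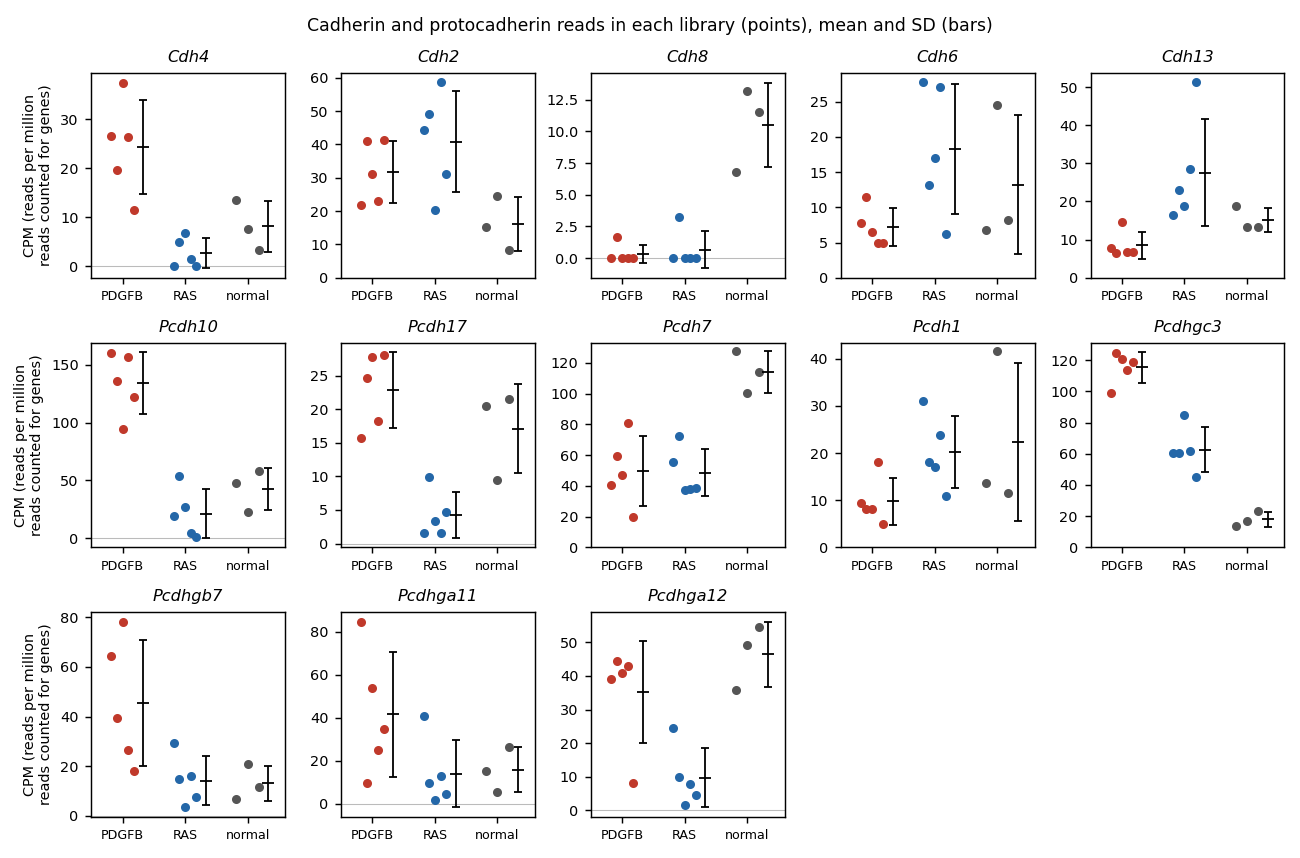
CPM of 13 members (vertical axes, reads scaled to the library total) by library, for PDGFB tumors, then RAS tumors, then normal brain; points are libraries and bars the mean and SD of each group. Pcdhgc3 separates all 3 groups, Cdh4, Pcdh10 and Pcdh17 lie higher in every PDGFB tumor than in every RAS tumor, and Cdh8 is at 0 in 8 of the 10 tumors.

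Of the 2 type I cadherins tested, Cdh4 differed more between the tumors. Cdh4 (R-cadherin, chromosome 2 at 179442431 to 179899373 on the plus strand of GRCm38) is an adhesion molecule of the developing retina and forebrain. Its reads were 17, 12, 23, 16 and 7 in PDGFB tumors 1 to 5, then 0, 3, 4, 1 and 0 in RAS tumors 1 to 5, and 8, 4 and 2 in normal brain samples 1 to 3. Every PDGFB tumor had more Cdh4 reads than any RAS tumor, while the normal samples overlapped both. Cdh4 averaged 24.4 ± 9.59 CPM in PDGFB tumors, 2.66 ± 3.06 CPM in RAS tumors and 8.16 ± 5.19 CPM in normal brain (SD, n = 5, 5 and 3). Against RAS tumors it rose in PDGFB tumors by a log2 fold change of 3.0 ± 0.61 (SE; edgeR adjusted p = 0.00132). It missed the threshold against normal brain, at 1.33 ± 0.62 in PDGFB tumors (edgeR adjusted p = 0.0882) and -1.67 ± 0.80 in RAS tumors (edgeR adjusted p = 0.0837), in opposite directions. The value in PDGFB tumors passed under 4 alternatives: without RAS tumor 5 (1.43, edgeR adjusted p = 0.0456), on library totals (1.56, 0.0459), with no low-count filter (1.46, 0.0473) and over only the compared groups (1.45, 0.0144). Without RAS tumor 3 the value in RAS tumors was -2.25 and passed (edgeR adjusted p = 0.0351).

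Cdh2 (N-cadherin), the main classical cadherin of neural cells and of many mesenchymal cells, had the opposite order of the tumor groups. It had 14, 25, 19, 14 and 25 reads in the PDGFB tumors, 27, 30, 12, 37 and 20 in the RAS tumors, and 9, 13 and 5 in normal brain. Both tumor groups averaged higher than normal brain and overlapped it: in CPM, PDGFB tumors 1 and 4 and RAS tumor 3 lay below normal brain sample 2. Cdh2 averaged 31.7 ± 9.34 CPM in PDGFB tumors, 40.8 ± 15.2 CPM in RAS tumors and 16.1 ± 8.18 CPM in normal brain. It rose in RAS tumors by 1.26 ± 0.42 on the log2 scale (edgeR adjusted p = 0.0160), a call lost without normal brain sample 3 (log2 fold change 1.0, edgeR adjusted p = 0.0760). The value in PDGFB tumors was 0.75 ± 0.42 (edgeR adjusted p = 0.157), and the difference between the tumors was -0.50 ± 0.32 (edgeR adjusted p = 0.244). The fibroblast and meninges markers were highest in RAS tumors in the ranges given above, and their part in the Cdh2 values was not tested.

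**Figure D2:**
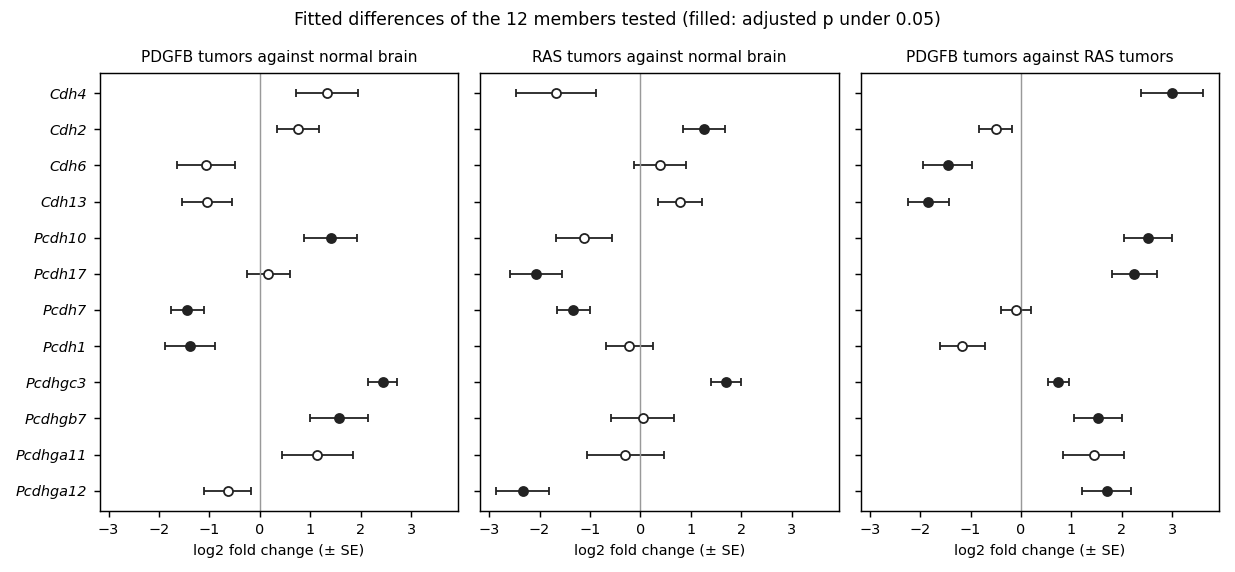
Log2 fold change (horizontal axes, with SE bars) of the 12 members tested in each of the 3 comparisons, from edgeR's quasi-likelihood fit; filled points have an adjusted p under 0.05. Cdh4 at 3.0, Pcdh10 at 2.52 and Pcdh17 at 2.24 lie farthest to the right for PDGFB tumors against RAS tumors, and Cdh13 at -1.84 farthest to the left.

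Of the type II cadherins, Cdh8 (chromosome 8 at 99024471 to 99416471, minus strand), a synaptic adhesion molecule of cortical and striatal projection neurons, was nearly missing from both tumor groups. It had 0, 1, 0, 0 and 0 reads in PDGFB tumors, 0, 2, 0, 0 and 0 in RAS tumors, and 4, 7 and 7 in normal brain. Thus 8 of the 10 tumors had no Cdh8 read, and no tumor reached the lowest normal sample. Its 21 reads were too few for the low-count filter. From summed reads, Cdh8 in PDGFB tumors was 37.8 times below normal brain (95% counting interval 5.97 to 1570) and 17.2 times below it in RAS tumors (4.11 to 153). Its mean was 0.328 ± 0.734 CPM in PDGFB tumors, 0.657 ± 1.47 CPM in RAS tumors and 10.5 ± 3.33 CPM in normal brain. An exact permutation test, with the p of 1 tail doubled, gave p = 0.0357 for PDGFB tumors against normal brain and p = 0.0357 for RAS tumors against normal brain. These are the smallest doubled values that 56 splits of 5 and 3 samples allow, and became 0.0536 each after adjustment over 3 comparisons. Without any 1 tumor of the group the doubled p is 0.0571, and without any 1 normal sample 0.0952, the smallest doubled values those sizes allow. The 8 neuron markers with no exon opposite were lower in sum in every tumor than in any normal sample, while the sum of all 12 in RAS tumors overlapped normal brain, and their part in the loss of Cdh8 reads was not tested.

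Cdh6 (K-cadherin), a type II cadherin of the kidney and of borders within the developing forebrain, had 5, 7, 4, 3 and 3 reads in PDGFB tumors, 17, 8, 10, 17 and 4 in RAS tumors, and 4, 13 and 5 in normal brain. The tumor groups overlapped at RAS tumor 5, and the normal samples spanned both. Means were 7.16 ± 2.71 CPM in PDGFB tumors, 18.2 ± 9.24 CPM in RAS tumors and 13.2 ± 9.86 CPM in normal brain. Cdh6 fell in PDGFB tumors against RAS tumors, at -1.46 ± 0.48 (edgeR adjusted p = 0.0265). That call was lost without PDGFB tumor 3, 4 or 5 or without RAS tumor 1 or 4, with log2 fold changes of -1.40, -1.32, -1.35, -1.26 and -1.26. Counting other alternatives too, it was lost under 6 of 20. Against normal brain the values were -1.07 in PDGFB tumors (edgeR adjusted p = 0.137) and 0.38 in RAS tumors (edgeR adjusted p = 0.552).

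Cdh13 (T-cadherin) is anchored to the membrane by a lipid, lacks a catenin-binding tail and binds adiponectin. It had 5, 4, 9, 4 and 4 reads in PDGFB tumors, 10, 14, 11, 18 and 33 in RAS tumors, and 11, 7 and 8 in normal brain. Every RAS tumor had more Cdh13 reads than any PDGFB tumor. Cdh13 averaged 8.46 ± 3.52 CPM in PDGFB tumors, 27.6 ± 14.1 CPM in RAS tumors and 15.1 ± 3.18 CPM in normal brain. It fell in PDGFB tumors against RAS tumors, at -1.84 ± 0.40 (edgeR adjusted p = 0.00216). Against normal brain the values pointed in opposite directions, -1.05 in PDGFB tumors (edgeR adjusted p = 0.0917) and 0.79 in RAS tumors (edgeR adjusted p = 0.138). Cdh13 is made by endothelial and smooth muscle cells. The 8 endothelial markers summed to 16.4 to 39.7 CPM in PDGFB tumors, 45.9 to 96.6 in RAS tumors and 20.8 to 26.4 in normal brain, and the 6 pericyte and smooth muscle markers to 6.27 to 17.9, 26.3 to 98.0 and 8.51 to 21.5 CPM in the same order. Cd34, the most abundant endothelial marker, has an exon of Gm16897 opposite. The 7 endothelial markers with no exon opposite summed to 4.96 to 31.4, 22.1 to 50.7 and 11.6 to 20.4 CPM in the same order, so the tumor groups overlapped. Both full lists were highest in RAS tumors, and their part in the Cdh13 difference was not tested.

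Among non-clustered protocadherins, Pcdh10 had the highest mean CPM of any member in PDGFB tumors. Pcdh10 (chromosome 3 at 45378398 to 45435623, plus strand) is a protocadherin that recruits the WAVE actin regulator and serves axon growth. It had 102, 83, 58, 95 and 74 reads in PDGFB tumors, 12, 33, 16, 3 and 1 in RAS tumors, and 28, 12 and 35 in normal brain. All PDGFB tumors lay above all other samples. The RAS tumors spread widely, with RAS tumor 2 the highest of them. Pcdh10 averaged 134 ± 26.9 CPM in PDGFB tumors, 21.5 ± 21.1 CPM in RAS tumors and 42.7 ± 18.1 CPM in normal brain. It rose in PDGFB tumors against RAS tumors by 2.52 ± 0.48 (edgeR adjusted p = 6.97e-04) and against normal brain by 1.40 ± 0.53 (edgeR adjusted p = 0.0395). The second call was lost without PDGFB tumor 1, 2, 4 or 5 or normal brain sample 1 or 2, where the log2 fold change was 1.33, 1.41, 1.42, 1.44, 1.59 and 1.20. RAS tumors against normal brain gave -1.12 (edgeR adjusted p = 0.0987), and without RAS tumor 2 Pcdh10 fell there, at -1.67 (edgeR adjusted p = 0.00774). It also passed there with no low-count filter, at -1.04, and in limma-voom, at -1.71.

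Pcdh17, which is close to Pcdh10 in sequence and acts at synapses between cortex and basal ganglia, followed it between the tumors. Its reads were 10, 15, 17, 11 and 17 in PDGFB tumors, 1, 6, 2, 1 and 3 in RAS tumors, and 12, 5 and 13 in normal brain. No RAS tumor reached the lowest PDGFB tumor, and again RAS tumor 2 was the highest of its group. Pcdh17 averaged 22.9 ± 5.65 CPM in PDGFB tumors, 4.23 ± 3.40 CPM in RAS tumors and 17.1 ± 6.67 CPM in normal brain. It rose in PDGFB tumors against RAS tumors by 2.24 ± 0.45 (edgeR adjusted p = 0.00107) and fell in RAS tumors against normal brain, at -2.08 ± 0.52 (edgeR adjusted p = 0.00238). PDGFB tumors and normal brain gave 0.17 ± 0.43 (edgeR adjusted p = 0.771). Without RAS tumor 2 the difference between the tumors was 3.17 for Pcdh10 and 2.75 for Pcdh17, so both were larger without the library that stood apart. The oligodendrocyte precursor markers above also separated every PDGFB tumor from every RAS tumor, and their part in these differences was not tested.

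Pcdh7, which binds a protein phosphatase through its tail, was lower in both tumor groups alike. It had 26, 36, 29, 49 and 12 reads in PDGFB tumors, 34, 44, 22, 24 and 25 in RAS tumors, and 75, 53 and 69 in normal brain. All tumors lay below all normal samples and the tumor groups overlapped. Means were 49.6 ± 22.6 CPM in PDGFB tumors, 48.5 ± 15.3 CPM in RAS tumors and 114 ± 13.8 CPM in normal brain. Pcdh7 fell in PDGFB tumors by 1.44 on the log2 scale (SE 0.33, edgeR adjusted p = 0.00179) and in RAS tumors by 1.33 (SE 0.33, edgeR adjusted p = 0.00218). PDGFB tumors against RAS tumors gave -0.10 ± 0.30 (edgeR adjusted p = 0.824), which does not show equal levels.

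Pcdh1, a protocadherin of epithelia and vessels, had 6, 5, 5, 11 and 3 reads in PDGFB tumors, 19, 11, 10, 15 and 7 in RAS tumors, and 8, 22 and 7 in normal brain. Normal brain sample 2 held more Pcdh1 reads than the other 2 normal samples together. The PDGFB tumors averaged 9.78 ± 4.97 CPM, the RAS tumors 20.2 ± 7.65 CPM and normal brain 22.3 ± 16.8 CPM. Pcdh1 fell in PDGFB tumors against normal brain, at -1.38 ± 0.50 (edgeR adjusted p = 0.0307), but without normal brain sample 2 the value was -0.49 (edgeR adjusted p = 0.503). Leaving out PDGFB tumor 1, 2, 3 or 5 also ended the call, at -1.37, -1.32, -1.25 and -1.22. Counting other alternatives too, the Pcdh1 call was lost under 9 of 20. Between the tumors it gave -1.16 (edgeR adjusted p = 0.0515), and passed without PDGFB tumor 4, RAS tumor 2, RAS tumor 5 or normal brain sample 2, at -1.46, -1.23, -1.32 and -1.11, and over only the compared groups, at -1.15.

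Promoter windows are shown for the non-clustered protocadherins and type II cadherins just described, except Pcdh1. The genes were picked since Pcdh10 and Pcdh17 moved together between the tumors, Pcdh7 and Cdh8 were low in both, and Cdh6 had the other order. Each window runs from 250 bases before to 50 bases after the RefSeq start (GRCm38.p6), 5′ to 3′ on the gene's strand. Windows were held for 21 members, none of them Cdh4 or Cdh13. Capitals mark the E-box CACCTG, which binds SNAI and ZEB repressors of Cdh1, the GC box GGGCGG of SP factors and the AP-1 motif TGANTCA, each searched on both strands. The windows lie at chr3:45378148-45378447 on the plus strand (Pcdh10), chr14:84443313-84443612 plus (Pcdh17), chr5:57717831-57718130 plus (Pcdh7), chr15:13173626-13173925 minus (Cdh6) and chr8:99416422-99416721 minus (Cdh8).
Pcdh10: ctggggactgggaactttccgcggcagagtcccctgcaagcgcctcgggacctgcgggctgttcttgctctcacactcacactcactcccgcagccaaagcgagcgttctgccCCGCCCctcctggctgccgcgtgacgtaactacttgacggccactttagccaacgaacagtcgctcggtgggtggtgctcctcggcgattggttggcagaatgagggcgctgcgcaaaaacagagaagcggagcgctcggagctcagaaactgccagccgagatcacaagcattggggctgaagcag
Pcdh17: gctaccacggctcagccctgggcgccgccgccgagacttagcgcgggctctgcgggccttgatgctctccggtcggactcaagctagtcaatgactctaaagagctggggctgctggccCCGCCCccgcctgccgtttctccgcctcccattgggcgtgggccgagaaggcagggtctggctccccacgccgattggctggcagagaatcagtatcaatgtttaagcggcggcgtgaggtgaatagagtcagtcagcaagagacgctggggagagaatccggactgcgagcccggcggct
Pcdh7: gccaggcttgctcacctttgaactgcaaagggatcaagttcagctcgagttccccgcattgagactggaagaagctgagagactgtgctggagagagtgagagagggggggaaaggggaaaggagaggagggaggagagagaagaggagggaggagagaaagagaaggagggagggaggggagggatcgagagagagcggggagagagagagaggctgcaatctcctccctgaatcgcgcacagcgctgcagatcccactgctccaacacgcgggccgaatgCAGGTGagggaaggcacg
Cdh6: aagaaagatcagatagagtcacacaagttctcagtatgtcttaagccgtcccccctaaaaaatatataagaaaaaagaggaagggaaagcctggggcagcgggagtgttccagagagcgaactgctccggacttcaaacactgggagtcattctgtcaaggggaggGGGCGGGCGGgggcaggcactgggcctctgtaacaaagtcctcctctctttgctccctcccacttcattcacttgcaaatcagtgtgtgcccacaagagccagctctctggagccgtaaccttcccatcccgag
Cdh8: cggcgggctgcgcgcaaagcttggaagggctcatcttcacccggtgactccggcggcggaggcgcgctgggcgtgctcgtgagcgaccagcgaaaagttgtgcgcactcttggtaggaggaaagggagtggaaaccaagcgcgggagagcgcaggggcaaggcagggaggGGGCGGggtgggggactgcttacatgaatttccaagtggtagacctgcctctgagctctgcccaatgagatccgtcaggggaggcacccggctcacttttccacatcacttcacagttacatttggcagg

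The 2 protocadherins that moved together each hold 1 GC box and neither other motif. Cdh8 also holds 1 GC box. Cdh6 holds 2 GC boxes that overlap by 2 bases, and Pcdh7 holds 1 E-box near its start and no GC box. The AP-1 motif is in none of the 5 windows. Of 32851 promoter windows of this length in mouse, 35.7% hold a GC box, 20.2% the E-box and 7.81% the AP-1 motif, so these matches are common. G and C make up 62.3% of the Pcdh10 window, 65.0% of that of Pcdh17, 59.3% of that of Pcdh7, 53.0% of that of Cdh6 and 62.3% of that of Cdh8. Exons of a gene on the other strand cover all 300 bases of the Pcdh7 window (4932441J04Rik), 113 bases of the Pcdh10 window (2610316D01Rik) and 80 bases of the Cdh8 window (A330008L17Rik), and none of the windows of Pcdh17 and Cdh6.

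In the Pcdhg cluster on chromosome 18, 4 consecutive members near its 3′ end held most reads. Pcdhgc3, a C-type gene (chromosome 18 at 37806364 to 37841873, plus strand) whose product binds Axin1, had 63, 76, 74, 69 and 72 reads in PDGFB tumors, 37, 37, 50, 39 and 29 in RAS tumors, and 8, 9 and 14 in normal brain. The 3 groups did not overlap. Pcdhgc3 averaged 115 ± 10.1 CPM in PDGFB tumors, 62.7 ± 14.3 CPM in RAS tumors and 17.9 ± 4.82 CPM in normal brain. It rose in PDGFB tumors by 2.44 ± 0.29 (edgeR adjusted p = 6.97e-06) and in RAS tumors by 1.70 ± 0.29 (edgeR adjusted p = 1.05e-04) against normal brain. Between the tumors it was higher in PDGFB tumors by 0.74 ± 0.21 (edgeR adjusted p = 0.0120). Per kilobase of exon it was the highest of the 12 in both tumor groups, at 21 CPM in PDGFB tumors and 11.4 CPM in RAS tumors, against 3.26 CPM in normal brain, where Pcdh7 was highest at 10.7 CPM per kilobase.

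Pcdhgb7, Pcdhga11 and Pcdhga12 lie upstream of Pcdhgc3. Pcdhgb7 had 41, 24, 48, 16 and 11 reads in PDGFB tumors, 18, 9, 2, 10 and 5 in RAS tumors, and 4, 11 and 7 in normal brain. PDGFB tumors 1, 2 and 3 lay above all RAS and normal samples, and the other PDGFB tumors overlapped them. It rose in PDGFB tumors by 1.57 ± 0.58 against normal brain (edgeR adjusted p = 0.0338) and by 1.53 ± 0.47 against RAS tumors (edgeR adjusted p = 0.0190). Without PDGFB tumor 1 or 3 both calls were lost, at 1.42 and 1.35 against normal brain and 1.38 and 1.26 against RAS tumors, and the first was also lost without normal brain sample 1 or 3, at 1.36 and 1.58. Counting other alternatives too, the call against normal brain was lost under 5 of 20.

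Pcdhga12 had 25, 27, 25, 26 and 5 reads in PDGFB tumors, 15, 6, 1, 5 and 3 in RAS tumors, and 21, 26 and 33 in normal brain. In CPM, PDGFB tumors other than tumor 5 lay within the range of normal brain, and all RAS tumors lay below it. Pcdhga12 fell in RAS tumors against normal brain, at -2.33 ± 0.52 (edgeR adjusted p = 0.00104), and was higher in PDGFB tumors than in RAS tumors by 1.70 ± 0.48 (edgeR adjusted p = 0.0122). Against normal brain PDGFB tumors gave -0.64 ± 0.46 (edgeR adjusted p = 0.278). Pcdhga11 was not called in any comparison with the low-count filter over all libraries, with log2 fold changes of 1.14, -0.30 and 1.44 for PDGFB tumors against normal brain, RAS tumors against normal brain and PDGFB tumors against RAS tumors. Without RAS tumor 1, which had 25 of the 43 Pcdhga11 reads of its group, the last was 2.34 and passed, as it did without PDGFB tumor 2, at 1.70, with no low-count filter, at 1.53 (edgeR adjusted p = 7.29e-04), and with a looser filter, at 1.53. In PDGFB tumors against normal brain it passed with no filter, at 1.27 (edgeR adjusted p = 0.0242), and over only the compared groups, at 1.26.

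**Figure D3:**
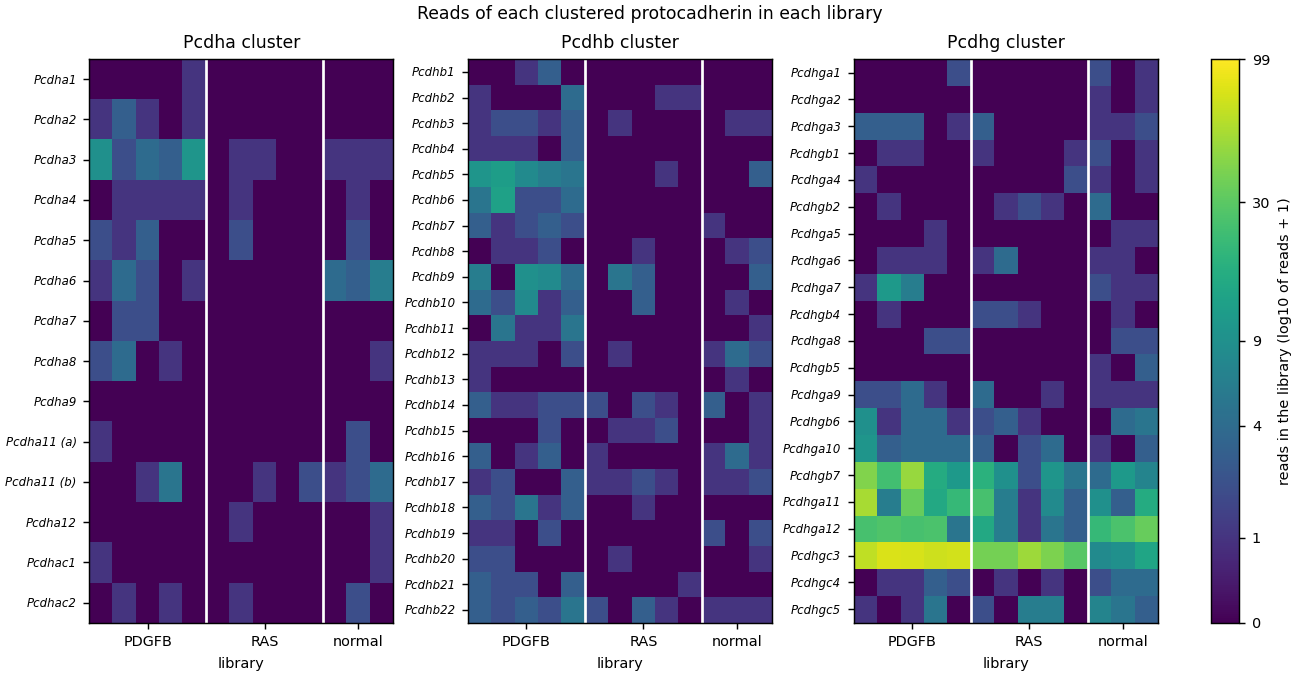
Reads of each clustered protocadherin (rows, in genome order within each cluster) in each library (columns, grouped as PDGFB tumors 1 to 5, RAS tumors 1 to 5 and normal brain 1 to 3); colour is the log10 of reads + 1, and (a) and (b) are 2 identifiers that share the symbol Pcdha11. Reads gather in the 4 genes from Pcdhgb7 to Pcdhgc3, and the RAS tumors have the fewest Pcdha and Pcdhb reads.

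The other 78 members were not tested by the fit with the low-count filter. Among them 5 had no read in any library (Cdh3, Cdh12, Cdh16, Cdh17, Pcdha9), and the largest count in a library was 20; counting the tested genes too, 56 of the 90 never passed 5 reads. Sums over a cluster are less sparse. The Pcdhb genes summed to 52, 50, 48, 39 and 51 reads in PDGFB tumors, 6, 10, 16, 7 and 2 in RAS tumors, and 10, 14 and 21 in normal brain. Every PDGFB tumor had more Pcdhb reads than any other sample, spread over 15 to 18 of the 22 genes, where RAS tumors had reads in 2 to 8 genes and normal brain in 7 to 13. The Pcdha genes summed to 17, 18, 14, 11 and 14 reads in PDGFB tumors, 0, 6, 2, 0 and 2 in RAS tumors, and 6, 13 and 14 in normal brain. RAS tumors were the lowest, with RAS tumor 2 equal to the lowest normal sample. The Pcdhg genes summed to 121 to 210 reads in PDGFB tumors, 43 to 113 in RAS tumors and 68 to 99 in normal brain. Reads that fall in the constant exons belong to all genes of a Pcdha or Pcdhg array: exons of each Pcdhg member overlap those of 25 other annotated genes on its strand, so such reads cannot be given to 1 gene.

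**Figure D4:**
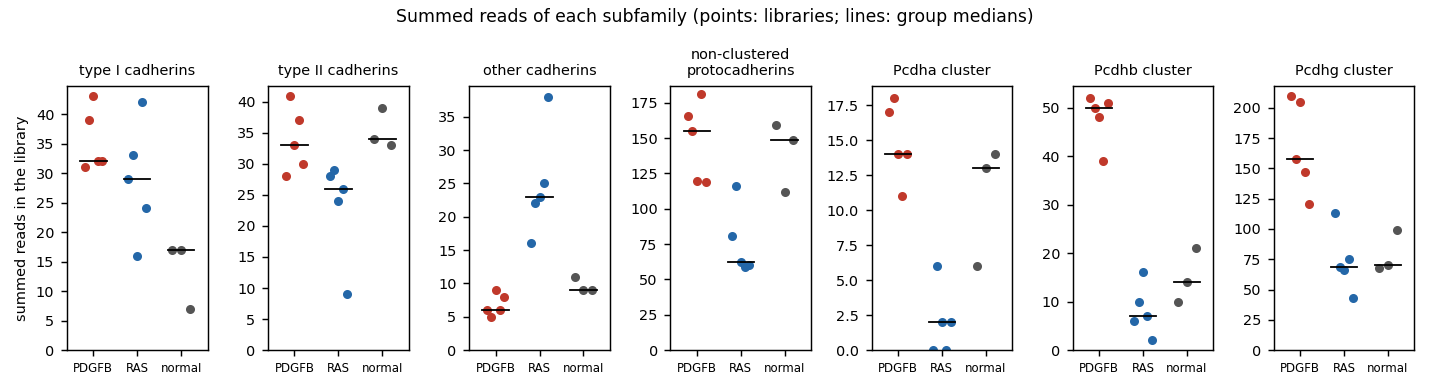
Summed reads of each subfamily (vertical axes, raw reads in the library) for PDGFB tumors, then RAS tumors, then normal brain; points are libraries and lines group medians. The Pcdhb sums of 39 to 52 in PDGFB tumors lie above all other samples, and the other cadherins, 16 to 38, are highest in RAS tumors.

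A fit with no low-count filter took in 23301 genes and 85 members. In it 16 members were higher and 4 lower in PDGFB tumors against RAS tumors, against 6.74% and 6.69% of all genes. Against normal brain, 8 were higher and 4 lower in PDGFB tumors, where 8.37% and 9.69% of all genes were. In RAS tumors against normal brain 4 were higher and 11 lower, against 11.6% and 12.9%. A looser filter, at least 1 CPM in 5 libraries, took in 16558 genes and 59 members. It called 17 higher and 4 lower in PDGFB tumors against RAS tumors, against 8.7% and 8.83% of all genes, 6 and 3 in PDGFB tumors against normal brain, against 12% and 12.9%, and 4 and 11 in RAS tumors against normal brain, against 16.7% and 17.6%. Of the members left out by the low-count filter, 20 were called in at least 1 comparison, and those named next were chosen after their values were seen. In the Pcdhb cluster, Pcdhb5 had 10, 12, 8, 6 and 5 reads in PDGFB tumors, 0, 0, 0, 1 and 0 in RAS tumors, and 0, 0 and 3 in normal brain, a ratio of 37.3 against RAS tumors (95% counting interval 6.33 to 1510) and 6.51 against normal brain (2.08 to 32.9). Pcdhb6 had 5, 13, 2, 2 and 4 reads in PDGFB tumors and none in any RAS or normal sample. With 3 reads put in for an empty group, it was 7.88 times higher than in RAS tumors and 4.13 times higher than in normal brain. Both genes were read in every PDGFB tumor and in at most 1 other sample of each group. Pcdha3, with 9, 2, 4, 3 and 10 reads in PDGFB tumors against 0, 1, 1, 0 and 0 in RAS tumors, had a ratio of 12.7 (3.21 to 110).

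Cadherins among these sparse members also split the tumors. Cdh20, a type II cadherin, had 4, 10, 5, 5 and 4 reads in PDGFB tumors, 3, 2, 1, 0 and 0 in RAS tumors, and 0, 4 and 2 in normal brain, a ratio of 4.24 between the tumors (1.72 to 12.5). Cdh24 had 5, 3, 1, 8 and 5 reads in PDGFB tumors and 0, 0, 1, 0 and 0 in RAS tumors, a ratio of 20 (3.23 to 826). Cdh23, the tip-link cadherin of inner ear hair cells, had the reverse order. It had 1, 0, 0, 2 and 4 reads in PDGFB tumors, 6, 8, 12, 6 and 5 in RAS tumors, and 0, 2 and 1 in normal brain. All RAS tumors exceeded all other samples, so that Cdh23 was 5.81 times lower in PDGFB tumors than in RAS tumors (2.56 to 15.4) and 6.46 times higher in RAS tumors than in normal brain (2.05 to 32.7). By summed reads alone, Pcdh8 and Cdh1 were also lower in PDGFB tumors than in RAS tumors. Pcdh8, which has an exon of Gm9748 opposite, had 9 against 49 reads, 5.99 times lower (2.91 to 13.9). Cdh1 had 1 against 10 reads, 11 times lower (1.56 to 477).

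Other sparse members were lowest in RAS tumors or in both tumor groups. Pcdh9, a protocadherin of brain neurons, had 6, 6, 6, 7 and 1 reads in PDGFB tumors, 0, 4, 4, 2 and 0 in RAS tumors, and 13, 8 and 11 in normal brain, 6.11 times lower in RAS tumors than in normal brain (2.93 to 13.9). Cdh11 (OB-cadherin), a type II cadherin of mesenchyme, had 3, 5, 3, 2 and 5 reads in RAS tumors and 10, 11 and 9 in normal brain, 3.18 times lower (1.72 to 6.06). Pcdha6 was listed at 0 in every RAS tumor against 4, 3 and 6 reads in normal brain. With 3 reads put in for an empty group, it was 8.27 times lower. Cdh18 had no read in RAS tumors against 2 in each normal sample, 3.82 times lower on the same footing. Cdh9, a neuronal type II cadherin, had none in any tumor and 2, 0 and 3 in normal brain. On that footing it was 3.50 times lower in PDGFB tumors and 3.18 times lower in RAS tumors. Ratios to an empty group are not lower limits, since they leave out counting error in the group with reads. The intervals given for other members cover counting error only, not the spread between mice.

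Exons of 19 members overlap exons of a gene on the other strand. The labels do not say whether the libraries kept the strand, and the strand setting of the count is not given. Whether reads under a member's name came from its own strand or from the other strand was not tested. This bears on the whole table. Genes opposite an exon made up 8928 of the 52083 matched, took 84.9% of the reads and had 187 reads per kilobase of exon over all libraries, against 12.5 for genes with none opposite. Among members the values were 20.7 reads per kilobase for the 19 and 4.59 for the other 71. The table holds 14 of the genes opposite members, of which 12 were tested. Of these 12, 7 rose and 2 fell in PDGFB tumors against RAS tumors, where 14.6% and 17.4% of all genes did. Against normal brain, in PDGFB tumors 1 rose and 6 fell (20.2% and 25.1% of all genes), and in RAS tumors 1 rose and 9 fell (26.9% and 29.3%).

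BC037039, an antisense RNA that shares 1559 bases with exons of Pcdhgc3, held 21025 reads over all libraries, 36.4 times those of Pcdhgc3. It had 3007, 2378, 2801, 2565 and 2295 reads in PDGFB tumors, 1525, 1553, 955, 1708 and 758 in RAS tumors, and 575, 435 and 470 in normal brain. The groups kept the order they had for Pcdhgc3, without overlap. BC037039 rose by 2.07 ± 0.23 in PDGFB tumors (edgeR adjusted p = 4.24e-06) and by 1.19 ± 0.22 in RAS tumors (edgeR adjusted p = 2.26e-04) against normal brain, and was higher in PDGFB tumors than in RAS tumors by 0.87 ± 0.19 (edgeR adjusted p = 0.00171). For Cdh8, whose exons share 23 bases with the antisense gene Gm15679, that gene had 0, 2, 1, 2 and 0 reads in PDGFB tumors, 0, 3, 0, 0 and 0 in RAS tumors, and 17, 19 and 33 in normal brain. Gm15679 fell in PDGFB tumors, at -4.67 ± 0.68 (edgeR adjusted p = 4.38e-05), and in RAS tumors, at -5.19 ± 0.74 (edgeR adjusted p = 1.81e-05). Like Cdh8, it was lower in each tumor than in any normal sample.

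For Pcdh10, the opposite gene 1700027H10Rik shares 154 bases. It had 147, 213, 94, 127 and 133 reads in PDGFB tumors, 10, 65, 44, 9 and 23 in RAS tumors, and 144, 98 and 142 in normal brain. It rose in PDGFB tumors against RAS tumors by 2.10 ± 0.40 (edgeR adjusted p = 7.55e-04), as Pcdh10 did, but gave -0.17 ± 0.42 against normal brain (edgeR adjusted p = 0.764), where Pcdh10 gave 1.40. Opposite Pcdh7, 4932441J04Rik shares 2235 bases and had 96, 166, 82, 147 and 95 reads in PDGFB tumors, 516, 233, 81, 388 and 274 in RAS tumors, and 193, 165 and 197 in normal brain. It fell in PDGFB tumors against normal brain, at -0.99 (edgeR adjusted p = 0.0381), but gave 0.48 in RAS tumors (edgeR adjusted p = 0.295), where Pcdh7 fell. Gm26672, opposite Pcdhga10, Pcdhgb7, Pcdhga11 and Pcdhga12, held 3570 reads and fell in RAS tumors against normal brain, at -1.08 ± 0.29 (edgeR adjusted p = 0.00373), with -0.37 in PDGFB tumors (edgeR adjusted p = 0.315). Gm37446, opposite the single exon of Pcdhb12 over 1927 bases, held 878 reads against 13 for Pcdhb12, and was higher in PDGFB tumors than in RAS tumors by 2.45 ± 0.31 (edgeR adjusted p = 1.84e-05). Among the 6 tested members with no exon opposite, Cdh4 and Pcdh17 rose and Cdh13 and Cdh6 fell in PDGFB tumors against RAS tumors. Those calls involve no annotated antisense exon, but the strand their reads came from was not tested.

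**Figure D5:**
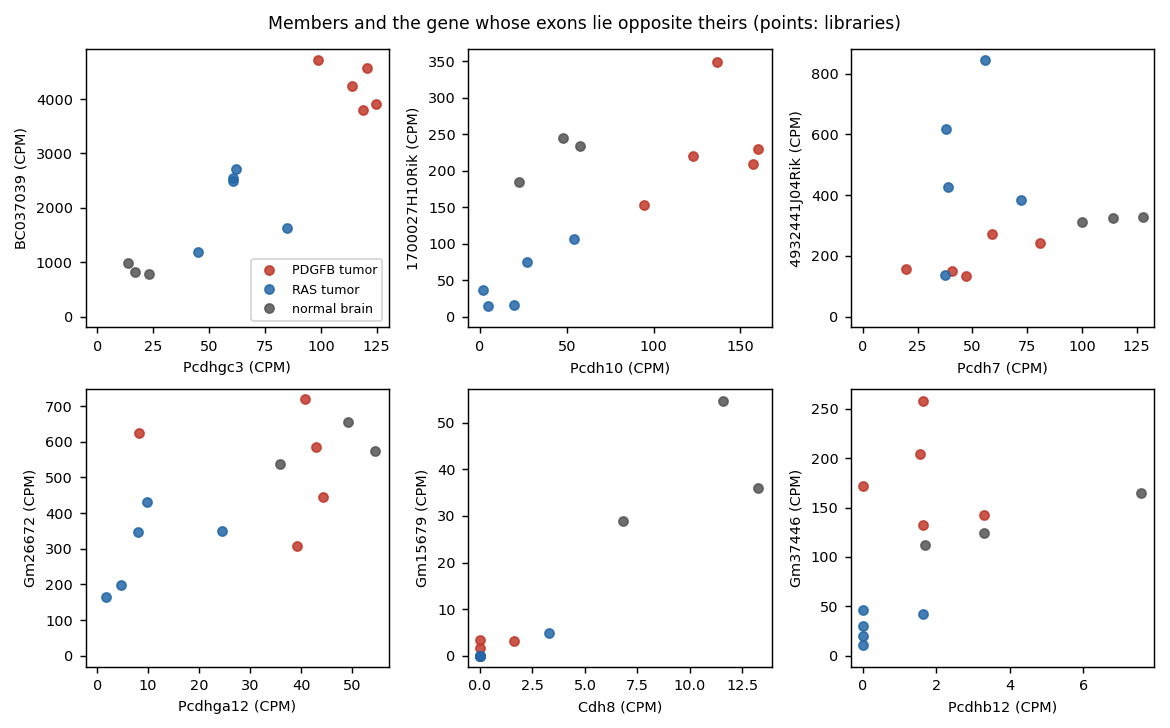
CPM of 6 members (horizontal axes) and of the gene whose exons lie opposite theirs (vertical axes); points are libraries, coloured as PDGFB tumor, RAS tumor or normal brain. Pcdhgc3 and BC037039 order the 3 groups alike, whereas Pcdh7 and 4932441J04Rik do not.

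The companions of cadherins were read from lists of their partners and regulators. Their counts stand beside the shares of all genes that rose and fell, 14.6% and 17.4% in PDGFB tumors against RAS tumors, 20.2% and 25.1% in PDGFB tumors against normal brain, and 26.9% and 29.3% in RAS tumors against normal brain. Of 15 catenins and junction proteins, 14 were matched and 8 tested. In PDGFB tumors against RAS tumors, 2 rose and 2 fell. Ctnna2 (αN-catenin) was higher at 2.36 ± 0.56 (edgeR adjusted p = 0.00395), with 15.6 ± 5.48 CPM in PDGFB tumors and 2.63 ± 1.87 CPM in RAS tumors. Ctnna2 also fell in RAS tumors against normal brain, at -2.68 ± 0.61 (edgeR adjusted p = 0.00127). Against normal brain 1 rose and 2 fell in PDGFB tumors and 2 rose and 2 fell in RAS tumors. Ctnnd2 (δ-catenin 2, a neuronal catenin) was higher in PDGFB tumors than in RAS tumors by 1.81. None of 9 desmosomal cadherins had enough reads to be tested, and 5 of them had no read. Of 18 atypical and distant cadherins 5 were tested: 3 fell and none rose in PDGFB tumors against normal brain, 4 fell and 1 (Fat1) rose in RAS tumors against normal brain, and 1 (Clstn1) rose in PDGFB tumors against RAS tumors, both named after their values were seen. Fat4, the giant cadherin of the Hippo pathway, fell at -3.02 ± 0.49 in PDGFB tumors (edgeR adjusted p = 1.11e-04) and -4.13 ± 0.56 in RAS tumors, and Clstn3 (calsyntenin 3) at -2.35 and -3.92.

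Of 9 transcription factors that repress or control cadherin genes, 5 were tested. Of the 5, 3 rose and none fell against normal brain in each tumor group, and between the tumors 1 was higher and 1 lower in PDGFB tumors. Twist1, a factor of mesenchymal transition, averaged 0.661 ± 0.905 CPM in PDGFB tumors, 26.7 ± 12.6 CPM in RAS tumors and 3.09 ± 3.97 CPM in normal brain, and fell in PDGFB tumors against RAS tumors at -5.10 ± 0.74. Zeb1, which has an exon of Gm10125 opposite, had the reverse order, at 91.6 ± 30.3 CPM in PDGFB tumors, 22.0 ± 13.8 CPM in RAS tumors and 11.2 ± 3.94 CPM in normal brain, and was higher in PDGFB tumors than in RAS tumors by 1.92 ± 0.36. Of 8 genes that cleave or traffic cadherins 4 were tested; 1 rose in PDGFB tumors and 3 in RAS tumors against normal brain, and 2 fell in PDGFB tumors against RAS tumors. Furin, which removes the propeptide of classical cadherins, averaged 3.92 ± 3.41 CPM in PDGFB tumors, 30.1 ± 6.04 CPM in RAS tumors and 1.14 ± 1.97 CPM in normal brain. Its difference between the tumors was -3.02 ± 0.47. Adam17, which has an exon of Iah1 opposite, gave -0.96 ± 0.23 there. Of 12 genes tied to the promoter choice of clustered protocadherins 10 were tested. Against normal brain 2 rose in PDGFB tumors (Ctcf, Rad21) and 1 in RAS tumors (Setdb1), and in PDGFB tumors against RAS tumors 1 rose (Rad21) and 1 fell (Setdb1). Rad21, a cohesin subunit, is named after its values were seen. Setdb1, a histone methyltransferase with exons of Cers2 opposite, averaged 43.0 ± 3.43 CPM in PDGFB tumors, 117 ± 17.7 CPM in RAS tumors and 26.8 ± 1.82 CPM in normal brain, at -1.58 ± 0.20 between the tumors. Ctcf, which loops the chosen Pcdh promoters to their enhancer, rose in PDGFB tumors against normal brain by 1.39 ± 0.38 (edgeR adjusted p = 0.00685) and gave 0.68 against RAS tumors (edgeR adjusted p = 0.0961).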

How the data were processed

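The deposited values are raw read counts per gene, which the authors made from reads processed with fastp 0.22.0 and STAR 2.7.9a on GRCm38, per the submitters' processing notes. The annotation and the strand setting are not given in the sources used here. Per the labels, a TruSeq RNA kit was used on Trizol extracts. Gene symbols, exons and overlaps came from GENCODE M21, and promoters from RefSeq. The members and lists were chosen with earlier results of these data known.

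Genes were tested with edgeR 4.0.16 (quasi-likelihood, TMM scaling) in R 4.3.3, with 1 coefficient per group over all 13 libraries, which share 1 estimate of the spread. The filter filterByExpr used a minimum count of 10 and a minimum total of 15. Tests were two-sided and adjusted by Benjamini-Hochberg over all genes. The fit was checked on simulated counts. CPM divides reads by those counted for genes. Ratios of sparse members use summed reads on TMM-scaled sizes with exact 95% binomial intervals, and a group with no read counts as 3 reads. Members named were Cdh4, Cdh8 and, per comparison, up to 6 higher and 6 lower called members with the largest change, and for each companion list up to 2 called genes with the largest change. Alternatives were DESeq2 1.42.0, limma-voom (limma 3.58.1), other scalings, filters and thresholds, only the compared groups, a replicate block, genes with no exon on the opposite strand, the opposite-strand gene's own reads, and leaving out each library.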

Additional observations from a re-analysis of the deposited data

Results flagged for a closer look

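Single libraries stood far from the rest of their group in 5 of 26 groups of 5 libraries examined. In these 5 groups the gap to the nearest library was 0.72 to 1.0 of the group's range. How often such gaps arise in counts this sparse was not tested. Both Cdh8 groups met the criterion because 1 library alone had reads. Cdh13 had 14.7 CPM in PDGFB tumor 3, against 6.57 to 7.84 CPM in the other PDGFB tumors. Without PDGFB tumor 3 its difference between the tumors was -2.10. Pcdhga11 had 40.9 CPM in RAS tumor 1, against 1.70 to 12.7 CPM in the other RAS tumors. Pcdhga12 had 8.27 CPM in PDGFB tumor 5, against 39.2 to 44.3 CPM in the other PDGFB tumors. Without PDGFB tumor 5 its difference between the tumors was 1.95. Cdh8 had 1.64 CPM in PDGFB tumor 2 and 3.28 CPM in RAS tumor 2, which are 1 and 2 reads, with the other tumors at 0.

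For 8 members the change against normal brain differed between the tumor groups, by edgeR's test of PDGFB tumors against RAS tumors. The normal samples' levels cancel in that comparison, but they enter the filter, the scaling and the shared estimate of the spread. The log2 difference was 3.0 for Cdh4, from 1.33 in PDGFB tumors and -1.67 in RAS tumors. It was 2.52 for Pcdh10 (1.40 and -1.12) and 2.24 for Pcdh17 (0.17 and -2.08). It was -1.84 for Cdh13 (-1.05 and 0.79) and -1.46 for Cdh6 (-1.07 and 0.38). Among clustered genes it was 1.70 for Pcdhga12 (-0.64 and -2.33), 1.53 for Pcdhgb7 (1.57 and 0.04) and 0.74 for Pcdhgc3 (2.44 and 1.70).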

How the results depend on the processing

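Between the tumors, Cdh4, Cdh13, Pcdh10, Pcdh17, Pcdhga12 and Pcdhgc3 were called at an adjusted p under 0.05 under every alternative that tested them. So were Pcdhgc3 and Pcdh7 against normal brain in both tumor groups, and Pcdh17 and Pcdhga12 in RAS tumors against normal brain, except where the opposite-strand gene's reads took the member's place. With 529162 to 643055 reads counted for genes per library, 56 of the 90 members never passed 5 reads in a library.

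With no low-count filter, members called were 8 higher and 4 lower in PDGFB tumors against normal brain, 4 and 11 in RAS tumors against normal brain, and 16 and 4 in PDGFB tumors against RAS tumors. A looser filter gave 6 higher in the first, 4 and 11 in the second, and 17 and 4 in the third. Both test more members, and their shares over all genes are given above. For the counts that follow no such share is given, so they show only how the calls moved. Genes with no exon opposite, which leave 6 members, gave 0 higher and 1 lower, 1 and 1, and 2 higher; the 3 members called higher in PDGFB tumors against normal brain are not among the 6. At an adjusted p under 0.01 the counts were 1 and 1, 1 higher, and 3 and 1. Only the compared groups gave 5 higher and 1 lower in PDGFB tumors against normal brain and 1 lower in PDGFB tumors against RAS tumors. Limma-voom gave 1 lower in each of these, and library totals 1 lower in PDGFB tumors against normal brain. Leaving out 1 library at a time gave 1 to 4 higher and 1 to 3 lower, 1 to 2 higher and 3 to 4 lower, and 5 to 7 higher and 1 to 4 lower. Library totals in place of TMM moved the median gene by 0.23, 0.09 and 0.14 on the log2 scale.

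Values that changed sign were these, and the cause was not tested. In PDGFB tumors against normal brain, Pcdh17 was -0.012 without normal brain sample 2 and at most 0.44 without any 1 library. In RAS tumors against normal brain, Pcdh1 was 0.03 without RAS tumor 5 and 0.61 without normal brain sample 2, from a lowest value of -0.47. Pcdhga11 was 0.03, 0.02 and 0.34 there without RAS tumor 3, RAS tumor 5 and normal brain sample 3, with a lowest value of -1.12. Pcdhgb7 was -0.075 with limma-voom, -0.29 without RAS tumor 1 and -0.22 without normal brain sample 1, with a highest value of 0.56. Between the tumors, Pcdh7 was 0.033 with library totals, 0.10 without PDGFB tumor 5 and 0.04 without RAS tumor 2, with a lowest value of -0.32. Cdh8 ran between -0.66 CPM and, without RAS tumor 2, 0.33 CPM. The reads of the opposite-strand gene gave -0.17 for Pcdh10 and -0.37 for Pcdhga11 and Pcdhgb7 in PDGFB tumors, and 0.48 for Pcdh7 and -1.08 for Pcdhgb7 in RAS tumors. TMM-scaled CPM for Cdh8, chosen after seeing the data, changed no call.

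The replicate numbers are shared by the tumor groups. Same-numbered tumors had correlations of 0.14, -0.02, -0.02, -0.13 and 0.08 in their deviations from the group means, and 1 of 5 correlated best with its own number, so the numbers do not pair the samples. With the replicate block on the tumors alone, 1 member was called lower and 5 higher in PDGFB tumors against RAS tumors. No share over all genes is given for that fit. The block moved 2 members past the threshold, Pcdh1 at -1.18 (edgeR adjusted p = 0.0350) and Pcdhga11 at 1.54 (edgeR adjusted p = 0.0445); Cdh4, Cdh6, Cdh13 and Pcdh17 had too few reads to be tested in it.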
